A study of Mus musculus with 9 samples.

Results

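Granzymes, perforin and cathepsin W are proteins of cytotoxic lymphocytes, and their genes were described across sorted T cells of gut and lymph node. The members were the 6 rows Gzma, Gzmb, Gzmk, Gzmm, Prf1 and Ctsw of a table of 770 genes, taken by gene name, with earlier results of these data known. The table came from a panel of barcoded probes and held log2 normalized counts for 9 samples. The gut samples were CD4, CD8 and CD4CD8 intraepithelial lymphocytes, and CD4 and CD8 cells of the small-intestinal lamina propria. The node samples were CD4 and CD8 cells of the mesenteric and of the peripheral lymph nodes. Each tissue and subset had 1 sample, so no group had a replicate.

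All 9 samples carry the same protocol text. It names mice of the B10.RIII background that were either wild type (WT) or Rag2-/- IRBP-/- R161H, where R161H is a T cell receptor transgene directed at the retinal protein IRBP. The mice were immunized with the peptide IRBP161-180 in complete Freund's adjuvant, which induces autoimmune uveitis in this strain. WT mice received ampicillin, metronidazole, neomycin, vancomycin and gentamicin in a sucralose gel for 1 week or for at least 4 weeks before immunization. The sample labels tie no sample to a genotype, to an antibiotic course or to a number of mice, and do not say whether animals were pooled. The values below therefore describe tissue and subset, and no value was compared between antibiotic courses.

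Cytotoxic T cells and NK cells keep perforin and granzymes in secretory granules and release them onto a target cell. Perforin makes pores in the target's membrane, and the granzymes, a family of serine proteases, pass into the target and cleave its proteins. Intraepithelial lymphocytes lie between the epithelial cells of the gut and are known as a population rich in granzymes. Cathepsin W is a cysteine protease of the papain family that is made mainly by cytotoxic lymphocytes.

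The lineage genes followed the labels. Cd4 was between 9.14 and 10.06 in the samples labelled CD4 or CD4CD8 and undetected above the floor in CD8 samples, and Cd8a was between 9.62 and 11.50 in the samples labelled CD8 or CD4CD8 and at the floor in the others. Cd8b1, the beta chain of the CD8 heterodimer, was at the floor in the CD4CD8 sample and between 8.85 and 9.91 in the CD8 samples. The floor was 4.32, which is the log2 of 20 normalized counts, and 336 to 474 genes per sample lay above it. The lowest value above the floor ranged from 4.34 to 6.30 between samples and was highest in intraepithelial CD4, so a gene at the floor has a looser upper limit there. Low values fell on whole multiples of a counting step in the 3 intraepithelial samples and lamina propria CD8, which gave summed counts of 49057 (CD4), 137599 (CD4CD8) and 136418 (CD8) for the intraepithelial samples and 65200 for lamina propria CD8. Depth is unknown in the other 5 samples. The 95% intervals below are exact Poisson intervals on these counts and cover counting error only.

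Granzyme A, a trypsin-like protease, had the widest range of the 6 genes. On the log2 scale intraepithelial Gzma was 13.48 in the CD4, 15.76 in the CD4CD8 and 14.67 in the CD8 sample. Lamina propria values were 9.64 for CD4 and 10.01 for CD8, and of the node samples only mesenteric CD8 was above the floor, at 4.67. The intraepithelial samples lay above both lamina propria samples, these lay above all node samples, and the 3 tissue levels did not overlap. In intraepithelial CD4CD8 the gene gave 24159 counts (interval 15.74 to 15.78) and 17.6% of the summed normalized counts of that sample. Its share was 11.5% in intraepithelial CD8, 5.91% in intraepithelial CD4, 0.41% in lamina propria CD4 and 0.66% in lamina propria CD8. All 6 genes together held 22.1% of the summed normalized counts in intraepithelial CD4CD8 and at most 1.78% in any lamina propria or node sample. In bulk samples, fewer cells of a type and less RNA per cell cannot be told apart.

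Granzyme B cleaves after aspartate and acts on caspases and on the death protein Bid in the target cell. Gzmb was 11.66, 13.51 and 12.25 in intraepithelial CD4, CD4CD8 and CD8, was 8.35 (CD4) and 8.54 (CD8) in the lamina propria, and never left the floor in the 4 node samples. Its order across the 5 gut samples was the same as that of Gzma. The difference between Gzma and Gzmb was not constant, however: it was 1.82, 2.25 and 2.42 in intraepithelial CD4, CD4CD8 and CD8, and 1.29 (CD4) and 1.47 (CD8) in the lamina propria, on the log2 scale. The counting intervals of the lamina propria pair could be set for CD8 alone, at 8.30 to 8.77 for Gzmb, and this interval holds the lamina propria CD4 value.

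Granzyme K, a trypsin-like protease like granzyme A, was less widely spread among the gut samples. Gzmk was 7.93, 9.49 and 9.46 in intraepithelial CD4, CD4CD8 and CD8, was 4.64 in lamina propria CD4 and 6.59 in lamina propria CD8, and was at the floor in all 4 node samples. The intervals of intraepithelial CD4CD8 (9.33 to 9.65, 313 counts) and CD8 (9.32 to 9.60, 424 counts) overlapped almost wholly. Intraepithelial CD4 was lower (7.55 to 8.29, 62 counts), and lamina propria CD4 stood only just above that sample's lowest value over the floor, 4.34.

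Granzyme M, which cleaves after methionine or leucine, had the opposite distribution. Gzmm was 6.36 in mesenteric node CD8 and 6.36 in peripheral node CD8, and was at the floor in the other 7 samples, all 5 gut samples among them. The size of that gap depends on each sample's lowest value above the floor. Node CD8 cells had at least 4.06-fold more Gzmm than lamina propria CD4, at least 2.48-fold more than intraepithelial CD8 and at least 1.79-fold more than intraepithelial CD4CD8. The bound was 1.71-fold for lamina propria CD8 and 1.04-fold for intraepithelial CD4, where the lowest value above the floor was 6.30, so at this depth hardly any difference from intraepithelial CD4 could be detected.

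Perforin was above the floor in every sample. Prf1 was 6.50, 7.99 and 7.29 in intraepithelial CD4, CD4CD8 and CD8. The CD4 and CD8 values were 4.74 and 6.48 in the lamina propria, 6.49 and 7.43 in the mesenteric nodes and 5.93 and 7.28 in the peripheral nodes. The order ran from intraepithelial CD4CD8 through mesenteric node CD8, intraepithelial CD8 and peripheral node CD8 to intraepithelial CD4, mesenteric node CD4, lamina propria CD8, peripheral node CD4 and lamina propria CD4. Neighbours in the middle of this order were close: intraepithelial CD4 rested on 23 counts (interval 5.84 to 7.09) and lamina propria CD8 on 37 counts (5.97 to 6.94), and both intervals hold the mesenteric node CD4 value. The interval of intraepithelial CD4CD8 (7.71 to 8.26) did not meet that of intraepithelial CD8 (6.98 to 7.58).

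Cathepsin W was also above the floor in every sample. Ctsw was 9.79, 10.77 and 11.54 in intraepithelial CD4, CD4CD8 and CD8. The CD4 and CD8 values were 8.08 and 10.24 in the lamina propria, 8.09 and 10.81 in the mesenteric nodes and 7.89 and 10.78 in the peripheral nodes. The 4 CD8 samples all lay above the 4 CD4 samples. Intraepithelial CD4 was the highest of the CD4 samples and lay closer to lamina propria CD8 than to any other CD4 sample. The interval of intraepithelial CD4CD8 (10.67 to 10.87) holds both node CD8 values.

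**Figure D1:**
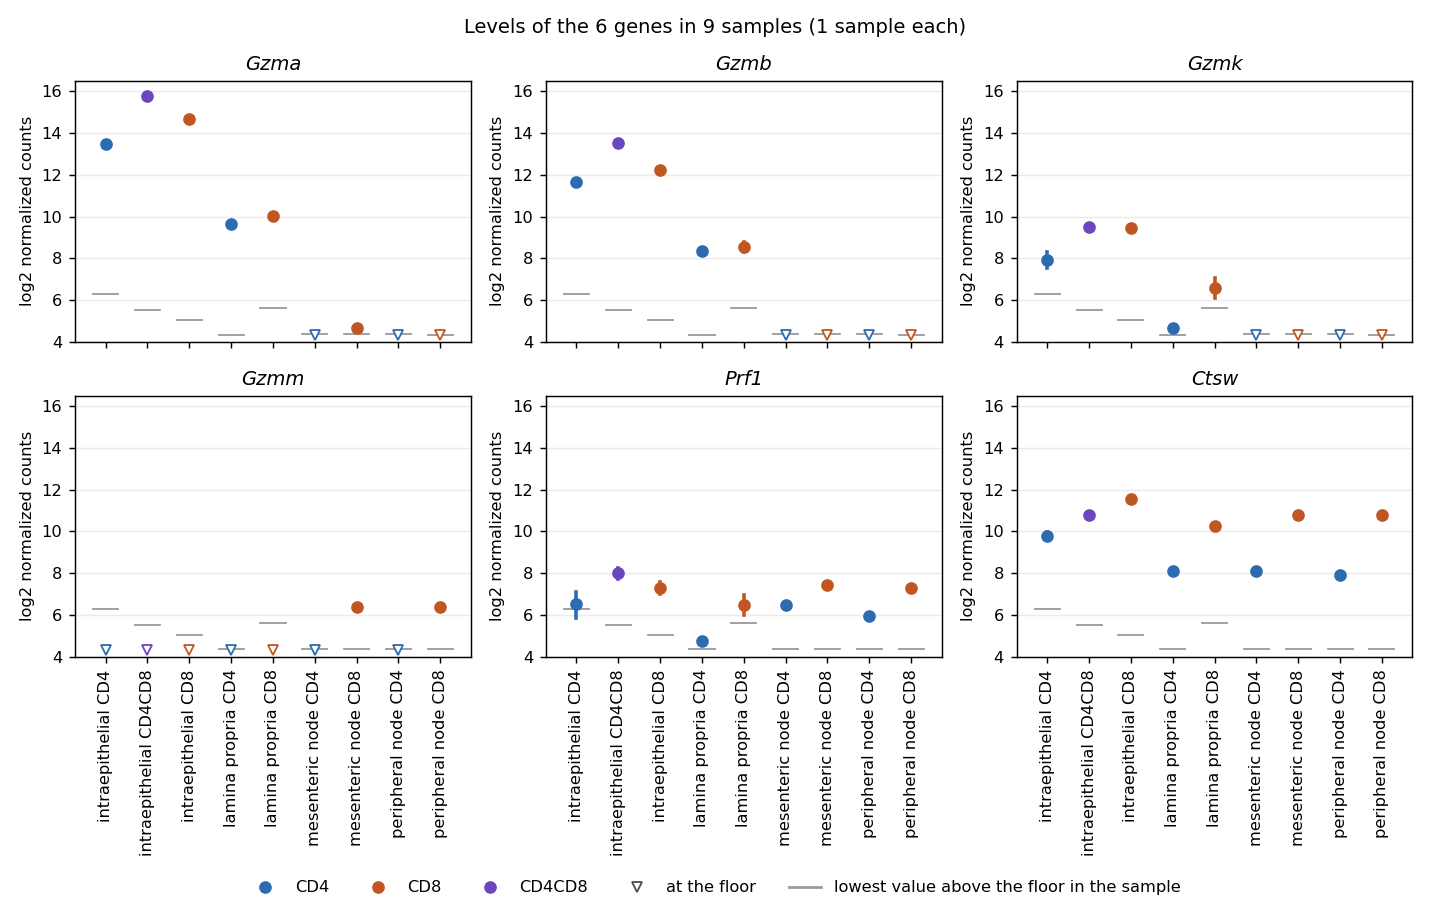
Log2 normalized counts (vertical axes, same scale) of the 6 genes in each of the 9 samples (horizontal axes). Filled points are measured values with 95% counting intervals where depth could be derived, open triangles are values at the floor and grey bars are the lowest value above the floor in that sample. Gzma, Gzmb and Gzmk step down from intraepithelial to lamina propria to node, Gzmm appears in the 2 node CD8 samples, and Prf1 and Ctsw are above the floor in all 9 samples.

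The promoters of the 3 granzymes that shared the gut distribution, and the first listed promoter of Gzmm, which did not share it, are shown for comparison. They are RefSeq windows of the mouse build GRCm38.p6, each 300 bases long, 250 before the gene's start and 50 after it, written 5′ to 3′ on the gene's strand. Capitals mark matches on either strand to 4 motifs of factor families known to act on granule genes: T-box (TNACACC), RUNX (TGTGGT), AP-1 (TGANTCA) and STAT (TTCNNNGAA), with no overlap between matches in these windows. Gzma and Gzmk are neighbours on chromosome 13, with 0 protein-coding genes between them in the RefSeq annotation.
Gzma (chr13:113100932-113101231, minus strand): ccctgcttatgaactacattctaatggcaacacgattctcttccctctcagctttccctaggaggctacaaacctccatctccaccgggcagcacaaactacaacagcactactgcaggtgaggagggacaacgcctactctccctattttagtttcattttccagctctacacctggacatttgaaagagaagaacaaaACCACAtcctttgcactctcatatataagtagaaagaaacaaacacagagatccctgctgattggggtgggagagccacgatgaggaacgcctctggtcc
Gzmb (chr14:56262285-56262584, minus strand): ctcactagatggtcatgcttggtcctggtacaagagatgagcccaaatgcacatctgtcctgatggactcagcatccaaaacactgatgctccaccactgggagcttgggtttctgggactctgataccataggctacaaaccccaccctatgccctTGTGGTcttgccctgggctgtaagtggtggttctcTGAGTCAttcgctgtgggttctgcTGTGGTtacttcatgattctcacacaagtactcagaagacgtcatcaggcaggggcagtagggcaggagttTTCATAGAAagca
Gzmk (chr13:113180916-113181215, minus strand): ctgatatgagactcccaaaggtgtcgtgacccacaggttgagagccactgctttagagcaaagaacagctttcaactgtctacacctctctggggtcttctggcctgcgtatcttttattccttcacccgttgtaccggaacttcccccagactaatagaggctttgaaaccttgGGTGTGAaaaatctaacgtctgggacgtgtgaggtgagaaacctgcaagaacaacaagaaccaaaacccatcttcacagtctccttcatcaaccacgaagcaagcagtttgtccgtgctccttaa
Gzmm (chr10:79688770-79689069, plus strand): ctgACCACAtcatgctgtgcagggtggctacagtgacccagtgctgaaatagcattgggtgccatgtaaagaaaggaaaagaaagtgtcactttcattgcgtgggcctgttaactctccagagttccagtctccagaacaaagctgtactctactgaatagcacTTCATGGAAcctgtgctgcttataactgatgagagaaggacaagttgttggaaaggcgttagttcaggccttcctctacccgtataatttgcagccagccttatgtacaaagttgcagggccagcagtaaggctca

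These windows did not share 1 set of motifs. The Gzma window held 1 RUNX match, starting 50 bases before the start site. The Gzmb window held RUNX matches 93 and 34 bases before the start, an AP-1 match 58 bases before it and a STAT match at base 38 after it. The Gzmk window held 1 T-box match 75 bases before the start. The Gzmm window held a RUNX match 247 bases and a STAT match 86 bases before the start, a second listed Gzmm promoter held a T-box match at 189 bases, and the Prf1 window held a RUNX match at 130 bases. Among 32851 RefSeq promoter windows of this length, 16.8% held a RUNX match, 10.2% a T-box match, 8.3% a STAT match and 7.8% an AP-1 match. A match describes letters in the window and not a bound factor.

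The first comparison asked how the granule genes of CD8 cells differed from those of CD4 cells of the same tissue. Ctsw and Prf1 rose in CD8 cells, and the granzymes did not pass the test. Each tissue pair gives 1 difference, and CD8 minus CD4 for Ctsw was 1.75 in the intraepithelial compartment, 2.16 in the lamina propria, 2.72 in the mesenteric nodes and 2.89 in the peripheral nodes, which is 3.36- to 7.41-fold. For Prf1 the differences were 0.79, 1.74, 0.94 and 1.35 in the same order. Both genes were higher in CD8 in 4 of 4 tissues.

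Over the 4 pairs, the difference on the log2 scale was 2.38 ± 0.21 for Ctsw (SE, adjusted p = 0.00555, limma) and 1.21 ± 0.22 for Prf1 (adjusted p = 0.0303). Ctsw kept its call in 11 of 11 alternative settings and Prf1 in 4 of 11, where its adjusted p ran up to 0.249. Leaving out 1 tissue pair ended the Prf1 call for the lamina propria (adjusted p = 0.0619), the mesenteric nodes (0.107) and the peripheral nodes (0.122). Scaling each sample on its CD3 chains, a setting chosen after the data were seen, gave Prf1 an adjusted p of 0.0528. Of the 433 genes tested, 14.8% were called in this comparison, 24 higher and 40 lower in CD8, against 2 of the 6 members. The share of calls that were higher in CD8 was 37.5%, and 50.0% after centring each sample on its median. The median difference was 0.95 over the members and -0.14 over all genes tested.

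The granzymes were higher in CD8 wherever both subsets of a tissue were above the floor, by amounts that differed between the genes. Gzma was higher by 1.19 in the intraepithelial pair and by 0.37 in the lamina propria pair, and Gzmb by 0.59 and 0.19. Gzmk was higher by 1.53 and 1.95. In the nodes Gzmb and Gzmk were at the floor in both subsets, which gives no difference but enters the fit as 0. Over all 4 tissues the difference was 0.48 ± 0.21 for Gzma (adjusted p = 0.194), 0.20 ± 0.15 for Gzmb (adjusted p = 0.41) and 0.87 ± 0.43 for Gzmk (adjusted p = 0.238). Gzmm was the reverse case: it was at least 3.94-fold higher in CD8 in the mesenteric nodes and at least 4.03-fold in the peripheral nodes, with no value in the gut pairs (1.02 ± 0.48 over all, adjusted p = 0.216).

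There are no replicate samples, so the SE and p of each comparison measure how much a difference varied between tissues or subsets, not between animals. Values at the floor have no spread, and for genes at the floor in many samples the SE and adjusted p can be too small. All 6 members passed the filter of 2 samples above the floor among the 8 tested. Gzmm passed only through the 2 node CD8 samples, and Gzmb and Gzmk only through the 4 gut samples. Gzma, with 1 node sample above the floor, also needed the gut samples to pass.

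**Figure D2:**
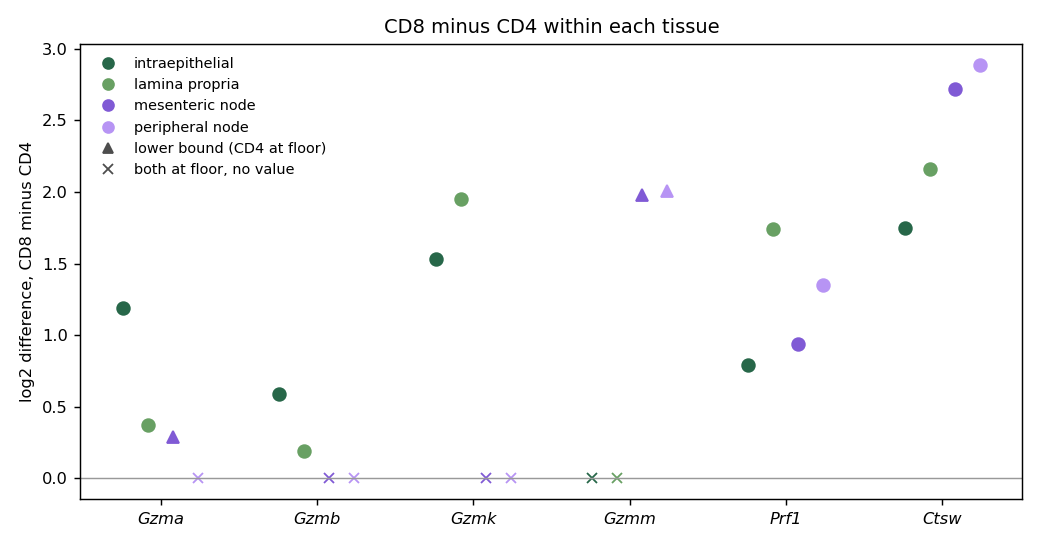
CD8 minus CD4 on the log2 scale (vertical axis) for each gene (horizontal axis) in each of the 4 tissues, 1 CD8 and 1 CD4 sample per point. Triangles are lower bounds where the CD4 sample was at the floor and crosses, placed at 0, mark pairs with both samples at the floor. All points of Ctsw lie at 1.75 or above and those of Prf1 between 0.79 and 1.74.

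Whether the subset difference itself differed between gut and node was tested with a gut-by-subset term. No member was called, and 1.39% of the genes tested were (6 of 433). For Ctsw the CD8 minus CD4 difference was smaller in the gut than in the nodes (-0.85 ± 0.19 on the log2 scale, adjusted p = 0.115), and this became a call when samples were scaled on the CD3 chains (adjusted p = 0.0466). For Prf1 it was 0.12 ± 0.46 (adjusted p = 0.923). For the granzymes this term has no measured difference on 1 side: Gzmb and Gzmk were at the floor in both subsets of the nodes, Gzma in 3 of the 4 node samples, and Gzmm in both subsets of the gut. No value of the term is therefore given for them.

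The second comparison set the intraepithelial CD4 and CD8 samples against the 4 node samples of the same subsets. Gzma, Gzmb and Gzmk were higher in the intraepithelial compartment in both subsets, by amounts that can only be bounded, Ctsw rose by less, and Prf1 and Gzmm did not pass. Set against the lowest value each node sample could show, intraepithelial Gzmb was at least 194-fold higher and Gzmk at least 20.2-fold higher. Gzma was at least 798-fold higher by the same measure, with 1 of the 4 node samples above the floor.

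The fitted differences were 9.67 ± 0.26 for Gzma, 7.63 ± 0.19 for Gzmb (adjusted p = 7.14e-05 for each) and 4.38 ± 0.53 for Gzmk (adjusted p = 0.00567). Gzmb and Gzmk passed the filter only through the gut samples, where they are high, and their 4 node values are 1 constant. Gzma also needed the gut samples to pass, with 1 of its 4 node samples above the floor. The fits of these 3 genes therefore describe the gap and do not support it. Fitted numbers are not bounds for any gene that is at the floor in part of its samples. Ctsw was higher by 1.27 ± 0.26 (adjusted p = 0.0234), a call kept in 5 of 9 alternatives. It was lost without the mesenteric node pair (adjusted p = 0.0593), without the peripheral node pair (0.0643), with no gene filter (0.0898) and with scaling on the CD3 chains, where the difference was 0.92 (0.0841). Prf1 differed by 0.11 ± 0.27 (adjusted p = 0.81). That difference turned to -0.24 when samples were scaled on the CD3 chains. Gzmm was -1.02 ± 0.59 (adjusted p = 0.266) and turned to 0.31 when floor values were set to each sample's lowest value above the floor. This comparison called 31.4% of all genes tested, 74 higher and 62 lower (54.4% higher, and 30.3% with the CD3 scaling), and 4 of the 6 members, 3 of them the granzymes with node values at the floor, so nothing is read from that count. The median was 2.82 over the members and 0.00 over all genes, with the same limit.

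The lamina propria stood between the intraepithelial compartment and the nodes for Gzma, Gzmb and Gzmk in both subsets, for Gzmk in CD4 by only 0.27 over the nodes' lowest measurable values. Against the nodes at their lowest measurable values, lamina propria Gzma was at least 41.9-fold higher, with 1 node sample above the floor, and Gzmb at least 17.0-fold higher. The fitted differences were 5.42 ± 0.26 and 4.12 ± 0.19 (adjusted p = 0.000709 for each), and 5.97 and 4.67 with scaling on the CD3 chains, with the same limit on node values at the floor. Gzmk was at least 2.39-fold higher as a mean of both subsets (1.29 ± 0.53, adjusted p = 0.15) and was called under 1 of 9 alternatives, the CD3 scaling (adjusted p = 0.0425).

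Perforin fell in the lamina propria against the nodes, by 1.17 on the log2 scale (-1.17 ± 0.27, adjusted p = 0.0398). This call held in 4 of 9 alternatives. It was lost without the mesenteric node pair (adjusted p = 0.187), without the peripheral node pair (0.113), and with scaling on the CD3 chains, where the difference was -0.62 (0.192). Ctsw was -0.23 ± 0.26 (adjusted p = 0.528) and 0.32 with the CD3 scaling. Among all genes tested 22.6% were called, 53 higher and 45 lower (54.1% higher, and 93.1% with the CD3 scaling), against 2 members higher, both with node values at the floor, and 1 lower. The median was 0.53 over the members and -0.01 over all genes.

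Markers of other cells differed between the gut compartments. Of 7 epithelial markers in the table, 5 were above the floor in each lamina propria sample, with summed levels of 6894.3 and 5686.8 normalized counts in CD4 and CD8, against 98.4 to 572.8 in the intraepithelial samples and 0 to 42.5 in the nodes. Dmbt1, at 12.42 and 12.11, carried most of the lamina propria sums. Cdh1 was highest in intraepithelial CD8, at 8.95, where it carried most of the sum, against 8.37 and 8.35 in lamina propria CD4 and CD8. It was also the marker above the floor in node CD8. Lcn2 and Muc1 were at the floor in all 9 samples. The mean of the CD3 chains Cd3d, Cd3e, Cd3g and Cd247 was 9.82 and 10.05 in the lamina propria, 10.70 to 11.26 in the intraepithelial samples and 10.43 to 10.58 in the nodes. Myeloid markers summed to 787.7 and 505.0 normalized counts in the lamina propria, where Lyz2 carried most of the signal, and to 24.6 to 86.8 elsewhere, with 6 of 10 at the floor in all 9 samples. The part of these cells in the lamina propria values was not tested.

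NK cells, mast cells and granulocytes can also hold granule proteases. Of 8 NK cell markers in the table, 6 were at the floor in all samples. Ncr1, an activating receptor of NK cells, was 5.09 in lamina propria CD4 alone, and Klrb1c was 5.05 and 5.13 in mesenteric and peripheral node CD8 alone. In the 3 intraepithelial samples all 8 were at the floor, but the lowest values above the floor there, 6.30, 5.52 and 5.05, lie at or near the levels that Ncr1 and Klrb1c reached elsewhere, so a like level would hardly be seen. Of 24 genes of NK-type receptors, which many cytotoxic T cells also carry, 4, 5 and 10 were above the floor in intraepithelial CD4, CD4CD8 and CD8. Among them Klra7 was 7.29 and Klra6 was 6.25 in CD8, and Klra17 was 6.06 in CD4CD8. Of 8 mast cell and granulocyte markers, 6 were at the floor in all samples, among them Ms4a2, Fcer1a, Elane and Mpo. Kit and Fcer1g made up the rest, with summed levels of 86.8 to 267.1 normalized counts in the intraepithelial samples, 167.9 in lamina propria CD4 and 0 in lamina propria CD8 and the nodes. The part of such cells in the granzyme values was not tested.

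The third comparison set the intraepithelial compartment against the lamina propria, subset by subset. Gzma was 14.3-fold higher in intraepithelial CD4 than in lamina propria CD4 and 25.3-fold higher in CD8. Gzmb was 9.92- and 13.1-fold higher and Gzmk 9.78- and 7.31-fold higher in CD4 and CD8. The log2 differences of Prf1 were 1.76 and 0.81 and those of Ctsw 1.71 and 1.30.

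Gzma rose by 4.25 ± 0.30 (adjusted p = 0.0022) and Gzmb by 3.51 ± 0.21 (adjusted p = 0.00188), calls that held in 8 of 8 alternatives for both. With scaling on the CD3 chains the differences were 3.35 and 2.61. Gzmk rose by 3.08 ± 0.62 (adjusted p = 0.0272), Ctsw by 1.50 ± 0.30 (adjusted p = 0.0272) and Prf1 by 1.28 ± 0.32 (adjusted p = 0.0479). The latter 3 calls held in 6, 4 and 3 of 8 alternatives. Without the peripheral node pair, which enters through the shared spread and the subset term, their adjusted p were 0.0538, 0.0533 and 0.111, and without the mesenteric node pair Ctsw and Prf1 were at 0.0509 and 0.106. The same scaling gave 2.18 for Gzmk (adjusted p = 0.0287), 0.61 for Ctsw (0.221) and 0.39 for Prf1 (0.409). Gzmm was at the floor in all gut samples. Of all genes tested 22.2% were called, 54 higher and 42 lower (56.2% higher, and 4.7% with the CD3 scaling), against 5 of the 6 members, with medians of 2.29 and 0.00. The tissue comparisons share samples and the fit, so their results are not independent of each other.

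Between the mesenteric and the peripheral nodes no member was called, and 0.0% of the genes tested were by limma (0 of 433, with 20 at an unadjusted p under 0.05). The differences were 0.17 ± 0.30 for Gzma, 0.36 ± 0.32 for Prf1 and 0.12 ± 0.30 for Ctsw. Gzmm was the same to 2 decimals in the CD8 samples of both kinds of node.

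**Figure D3:**
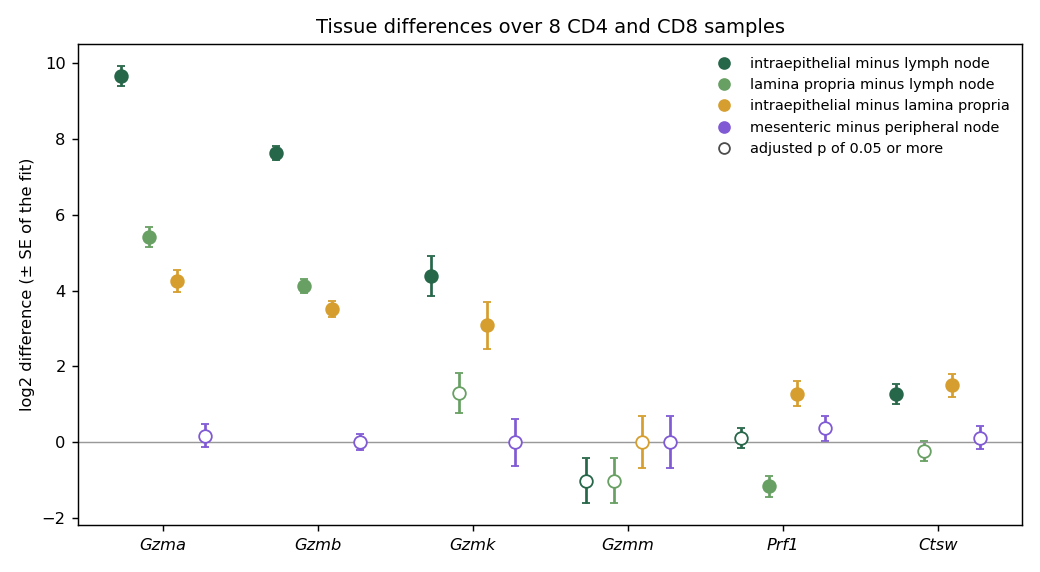
Fitted tissue differences on the log2 scale (vertical axis) with their SE for each gene (horizontal axis) over the 8 CD4 and CD8 samples. Filled points passed an adjusted p of 0.05 and open points did not. Gzma, Gzmb and Gzmk have their highest points at 9.67, 7.63 and 4.38 for intraepithelial minus node, where the node values lie at the floor but for 1 of Gzma, while Prf1 is at 0.11 there and at -1.17 for lamina propria minus node.

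In the values as deposited, intraepithelial cells labelled CD4CD8 had the highest Gzma, Gzmb, Gzmk and Prf1 of the 9 samples. This sample has no counterpart in another tissue, so the values are differences between single samples with no test. Gzma was 4.86-fold higher than in intraepithelial CD4 and 2.13-fold higher than in intraepithelial CD8, and Gzmb was 3.61- and 2.39-fold higher. Prf1 was 2.81- and 1.62-fold higher. The mean of the CD3 chains was also highest in CD4CD8, at 11.26. Relative to that mean, Prf1 was -3.27 in CD4CD8, below mesenteric node CD8 (-3.03) and peripheral node CD8 (-3.2). It stayed above intraepithelial CD4 (-4.2) and CD8 (-3.68).

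The other genes did not stand above both samples in this way. Gzmk was 2.95-fold higher than in CD4 and level with CD8, at 1.02-fold with overlapping counting intervals. Ctsw lay between them, 1.97-fold above CD4 and at 0.59 of the CD8 level, and Gzmm was at the floor in all 3. A log2 difference of at least 1 above both other samples was found for Gzma and Gzmb among the 6 members, and for 4.94% of the 385 genes that left the floor in any intraepithelial sample. Any excess over both was found for 4 of the 6 members and 42.6% of those genes. Ranked by the excess over the higher of the other 2 samples, Gzmb was at rank 12, Gzma at 18, Prf1 at 29, Gzmk at 157 and Ctsw at 288 of 385. Centring each sample on its median lowered the excess of Gzma from 1.09 to 0.92 and of Gzmb from 1.26 to 1.09. It lowered that of Prf1 from 0.70 to 0.53 and turned that of Gzmk from 0.03 to -0.14.

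**Figure D4:**
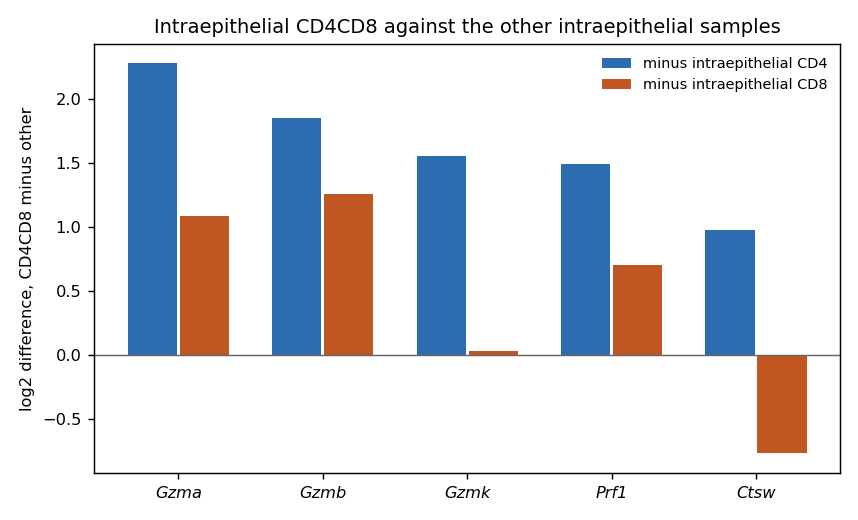
Log2 difference (vertical axis) between the intraepithelial CD4CD8 sample and the intraepithelial CD4 or CD8 sample for the 5 genes above the floor there (horizontal axis), 1 sample of each kind. Both bars of Gzma and Gzmb exceed 1, the CD8 bar of Gzmk is 0.03 and that of Ctsw is -0.77.

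The genes most like each member were taken by Pearson's r over the 9 samples among the 359 genes that exceeded the floor in 5 or more of them. These r values are descriptions: the points share tissue and subset, and floor values raise r between genes that are all at the floor in the nodes. Gzma and Gzmb were most like each other (r = 0.999), followed for both by Cd38, a surface enzyme that consumes NAD (0.992 and 0.989), and Mcam, an adhesion molecule (0.989 and 0.989). Cd38 was 8.62 to 9.58 in the intraepithelial samples, 7.40 and 7.48 in the lamina propria and 4.50 to 5.27 in the nodes. Gzmk was most like Cd244, a receptor of the SLAM family found on NK and CD8 cells (0.991), and Itga1, the integrin alpha chain of tissue-resident cells (0.989).

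Perforin and cathepsin W had other neighbours. Prf1 was most like Igf2r, the receptor that carries mannose 6-phosphate proteins to lysosomes (0.914), Psmb8, a subunit of the immunoproteasome (0.908), and Xaf1 (0.878). Ctsw was most like Nod1, a sensor of bacterial peptidoglycan (0.950), Igf2r (0.910) and the chemokine Ccl5 (0.909). For Gzmm, Cd69 came first at 0.835. Gzmm itself was above the floor in node CD8 alone, and the genes compared had to exceed it in 5 or more samples. A gene with the pattern of Gzmm could therefore not be among them, and whether it has a close match is not shown. Klrb1c, outside the genes compared, was likewise above the floor in node CD8 alone (5.05 mesenteric, 5.13 peripheral). Among the members, r was 0.948 between Gzma and Gzmk, 0.804 between Prf1 and Ctsw, 0.227 between Gzma and Prf1 and -0.535 between Gzma and Gzmm.

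Other routes of killing were read from the death ligands. Fasl, the ligand of the death receptor Fas, was 6.62, 7.94 and 7.24 in intraepithelial CD4, CD4CD8 and CD8, 4.74 in lamina propria CD4, at the floor in lamina propria CD8, and 4.58 to 6.63 in the nodes. Tnfsf10, which encodes TRAIL, was 8.23, 9.50 and 9.26 in the intraepithelial samples, 6.15 and 6.63 in the lamina propria and 6.05 to 6.43 in the nodes. The intraepithelial samples were above all others for Tnfsf10, while peripheral node CD8 overlapped them for Fasl.

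Of 6 death ligands and effector cytokines, 4 were called in the intraepithelial samples against the nodes, where 31.4% of all genes were. Tnfsf10 rose by 2.50 ± 0.22 (adjusted p = 0.0032) and Fasl by 1.68 ± 0.45 (0.0476), while the lymphotoxin gene Ltb fell by 0.90 (0.00755). The fourth call, Lta, rests on floor values: it was at the floor in the intraepithelial samples and 5.46 to 6.78 in the nodes, around the lowest value of 6.30 that intraepithelial CD4 could show, so no difference is given. The list's median was 0.90, against 0.00 for all genes. Against the lamina propria Tnfsf10 rose by 2.35 and Fasl by a fitted 2.40 (adjusted p = 0.00592 and 0.0333), and none fell, with 22.2% of all genes called. Fasl was at the floor in lamina propria CD8, where the lowest value above the floor was 5.59. Its fitted difference therefore includes 1 pair that can only be bounded. No gene of this list was called between CD8 and CD4, where 14.8% of all genes were, so nothing is read from that count. Of the genes of the target cell's death pathway, Bid, a substrate of granzyme B, went from 5.05 in CD4 to 5.73 in CD8 of the lamina propria, from 5.01 to 6.30 in the mesenteric nodes and from 5.04 to 6.19 in the peripheral nodes. In the intraepithelial pair CD8 was 5.25, below the lowest value that the CD4 sample could show, so the fitted difference of 1.01 ± 0.19 (adjusted p = 0.0321) includes 1 pair without a measured difference.

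Few other genes of granules and lysosomes were on the panel. Of 5 tested, Lamp2, a lysosomal membrane protein, rose in the intraepithelial samples by 1.15 ± 0.17 and in the lamina propria by 1.20 ± 0.17 against the nodes (adjusted p = 0.00891 and 0.00974), and fell by 0.73 in CD8 against CD4 (0.0303). With scaling on the CD3 chains its lamina propria difference was 1.75 (0.00655). Cd63, a membrane protein of lysosomes and granules that many cell types make, was 6.98 in lamina propria CD4 and 6.70 in lamina propria CD8, and the other 7 samples were at the floor. The epithelial markers Dmbt1, Ceacam1 and Ccl25 had the same pattern, measured in both lamina propria samples and at the floor in the other 7, and their part in the Cd63 values was not tested. Of 3 other cathepsins tested, Ctss fell by 0.89 in the intraepithelial samples against the nodes (0.0393), where 31.4% of all genes were called. None of the 3 was called between CD8 and CD4, where 14.8% of all genes were, so nothing is read from that count.

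Of the transcription factors known to act on granule genes, the T-box factors differed from each other. Tbx21, which encodes the T-box factor T-bet, was 6.30, 7.20 and 6.71 in intraepithelial CD4, CD4CD8 and CD8, 5.05 and 5.59 in the lamina propria, 5.52 and 4.75 in mesenteric and peripheral node CD8, and at the floor in node CD4. Eomes, the second T-box factor of cytotoxic cells, was 7.03 in lamina propria CD8, 7.22 in mesenteric node CD8 and 7.45 in peripheral node CD8, and at the floor in the other 6 samples, all 3 intraepithelial ones among them. Of 13 factors tested, 5 rose and 2 fell in the intraepithelial samples against the nodes, with 31.4% of all genes called: Rora rose by 2.42 ± 0.24 (adjusted p = 0.00352) and Tbx21 by 1.78 ± 0.27 (0.00983), and Tcf7, a factor of naive and memory cells, fell by 1.56 (0.00191). For Tbx21 the fit includes node CD4 samples at the floor. Its intraepithelial CD4 value of 6.30 was the lowest above the floor in that sample. Prdm1, another of the 5, was at the floor in all node samples and 6.30, 7.18 and 5.73 in intraepithelial CD4, CD4CD8 and CD8. In CD8 against CD4, where 14.8% of all genes were called, none of the 13 rose and 5 fell, Runx1 the most, by 1.74 (0.00984). The list's medians were 0.87 and -0.63, against 0.00 and -0.14 over all genes.

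Of 9 tested receptors of cytokines known to induce granule genes, 3 were called between intraepithelial and node samples, a share close to the 31.4% of all genes. Il7r fell by 1.60 (adjusted p = 0.00348). The chains of the interleukin-12 receptor, Il12rb2 and Il12rb1, were 8.53 and 7.07 in intraepithelial CD4 and 7.12 and 6.19 in intraepithelial CD8, and in the nodes they were at the floor but for Il12rb2 at 4.36 in mesenteric node CD8. Il2rb, the chain shared by the receptors of interleukin-2 and interleukin-15, was 10.06 to 10.63 in the gut samples, 8.90 and 9.11 in node CD4 and 10.28 and 10.65 in node CD8. Its CD8 minus CD4 difference was lower in the gut than in the nodes by 1.66 (-1.66 ± 0.15, adjusted p = 0.0341), 1 of the 6 genes called for that term, all of which became uncalled when any 1 tissue pair was left out.

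NK-type receptors are carried by many cytotoxic T cells. Of 11 tested, 3 rose in CD8 and none fell, with 14.8% of all genes called: Klrc1 by 3.43 ± 0.40, Klrd1 by 3.08 ± 0.28 and Cd160 by 2.25 ± 0.14 (adjusted p = 0.0126, 0.00564 and 0.00173). Klrc1 was at the floor in CD4 of the intraepithelial compartment and of both kinds of node, so its fitted difference is not a measured one. In the intraepithelial pair its CD8 value was 7.69, and the lowest value above the floor in CD4 was 6.30. For Cd160 the fit likewise includes node CD4 samples at the floor. Cd160 was 8.99, 10.51 and 11.04 in intraepithelial CD4, CD4CD8 and CD8, 6.62 and 8.72 in the lamina propria, 6.72 and 6.78 in node CD8 and at the floor in node CD4. It rose by 4.48 ± 0.17 in the intraepithelial samples against the nodes (adjusted p = 0.000179). Cd244, at the floor in all node samples, was the only other of the 11 called there, against 31.4% of all genes. The medians of this list were 1.15 for CD8 minus CD4 and -0.08 for intraepithelial minus node, against -0.14 and 0.00 over all genes.

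The called genes of these lists kept their sign under both other scalings. Centring on the median kept 50 of their calls and lost those of Lamp2 (adjusted p = 0.0512) and Stat5b (0.111) between CD8 and CD4. The CD3 scaling kept 37 and lost 15, among them intraepithelial minus node for Fasl (adjusted p = 0.101) and Lamp2 (0.0612), intraepithelial minus lamina propria for Fasl (0.08), and CD8 minus CD4 for Bid (0.0899) and Lamp2 (0.0541).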

How the data were processed

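The deposited table holds log2 normalized counts of 770 genes in 9 samples, given to 2 decimals, with 0 missing. Per the labels' protocols, RNA was isolated with a column kit and read with pairs of probes, a capture probe with biotin and a reporter with a barcode. Not given in the sources used here are the counting instrument, the authors' scaling between samples and their rule for the floor. The mean of 20 housekeeping genes was 7.64 to 7.88 per sample.

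Values were used as deposited. The counting step of a sample was sought among values up to 150 normalized counts: in the 4 samples where it was resolved, 96.1 to 100.0% of these values were whole multiples within 0.005 log2 of rounding, against 19.3 to 34.8% by chance, and the lowest value above the floor was 20 counts. The fit was limma 3.58.1 in R 4.3.3 (lmFit, then eBayes with trend) on the 8 CD4 and CD8 samples with additive tissue (4 levels) and subset terms, 3 residual and 1.89 prior degrees of freedom. The gut-by-subset term left 2 residual degrees of freedom. Genes that exceeded the floor in 2 or more of 8 samples, without the housekeeping genes, were tested (433), two-sided, with Benjamini-Hochberg adjustment over all of them at 0.05. The CD8 minus CD4 fit was run on simulated data with normal noise and no floor. That run does not cover values at the floor or the tissue comparisons. A lower bound sets each sample at the floor to its own lowest value above the floor.

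The members and gene lists were chosen with earlier results of these data known. Named genes are the 6 members, the 3 genes most like each by Pearson's r, the lineage genes and, per list, up to 3 called genes per direction with the largest difference; values of further genes of the lists are given without selection by a test, and 1 gene that the rule named is not reported here. Alternatives raised low values to the highest sample limit, set floor values to each sample's limit, dropped the gene filter, the trend or the tissue term, centred samples on their median, left out each tissue pair, and, added after the data were seen, scaled samples on the 4 CD3 chains. Of the gene names, 754 match a RefSeq symbol of GRCm38.p6, all 6 members among them, and 5 members have a promoter there.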

Additional observations from a re-analysis of the deposited data

How the results depend on the processing

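Of the alternatives for single genes, 285 kept the main result, 27 lost a call, 5 gained one, 8 turned a sign and 5 moved a value. The count of genes called between CD8 and CD4 (64) was 36 with low values raised to 6.30, 14 with no gene filter and 21 with no tissue term, and 21 to 69 with 1 tissue pair left out; members called (2) were 1 under these settings and under CD3 scaling, and 1 to 2 with a pair left out. Intraepithelial minus node (136) gave 76 with no filter and 51 to 124 with a pair left out; lamina propria minus node (98) gave 21 to 136. Intraepithelial minus lamina propria (96, members 5) gave 50 genes and 2 members with no filter, 191 genes and 3 members with CD3 scaling, and 26 to 55 genes and 2 to 3 members with a pair left out. With no filter 1 gene was called between the nodes. The gut-by-subset term (6) gave 21 genes with floor values at each sample's limit, 1 with no filter, 35 with CD3 scaling and 0 with any pair left out. Members called there (0) were 1 with no filter, 2 with CD3 scaling and 1 with no trend. Gzmm was the member called with no filter and with no trend, and 1 of the 2 with CD3 scaling. It was at the floor in both subsets of the gut, so nothing is read from its calls. Fits without a pair have fewer samples, and not all of them gave lower counts. The causes of these changes were not tested.

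CD3 scaling shifted the median of all genes to -0.35 for intraepithelial minus node, 0.53 for lamina propria minus node and -0.90 between the gut compartments, and the share of calls that were higher from 54.4 to 30.3%, from 54.1 to 93.1% and from 56.2 to 4.7%. Median centring moved this share from 37.5 to 50.0% for CD8 minus CD4. Signs turned for Gzmm, intraepithelial minus node, with floor values at each limit (0.31); for Prf1, intraepithelial minus node, with CD3 scaling (-0.24) and without 1 tissue pair (-0.07 to 0.29, the lowest without the peripheral nodes); for Ctsw, lamina propria minus node, with CD3 scaling (0.32); and for the gut-by-subset term of Prf1 with low values raised (-0.47), with CD3 scaling (-0.16), and without 1 tissue pair (-0.36 to 0.60, below 0 without the lamina propria or the mesenteric nodes). None of these 4 differences was called. Median centring left 1 member in place of 2 at least 1 above both other intraepithelial samples. Of the 3 genes most like each member, Spearman's rho shared 1 for Gzma, 1 for Gzmb, 0 for Gzmm and 1 for Ctsw, and raised low values shared 1 for Gzmk and 1 for Gzmm.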
